A study of Mus musculus with 2 samples.

Results

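Macrophages that clear apoptotic cells do so through the TAM receptor kinases, the soluble ligands that bridge these receptors and the integrins to phosphatidylserine on the dying cell, other uptake receptors, and the CD47 and SIRPα pair that restrains engulfment. The 10 genes described here are Mertk, Axl and Tyro3 (TAM kinases), Gas6, Pros1 and Mfge8 (bridging ligands), Timd4 and Lrp1 (other uptake receptors), and Cd47 and Sirpa (the restraint). They were taken by symbol, and all 10 were present among the 46095 gene symbols of the count table. The KO library came from LyzM-Cre mice with floxed Tipe1 alleles (genotype label TIPE1-/-), and the WT library from mice that the design text gives as Tipe1f/f, without Cre, and the genotype label as wild type. Both were of the C57BL/6 strain, and in both the macrophages were grown from femur and tibia marrow for 5 days with 100 ng/ml macrophage colony-stimulating factor. Each genotype had 1 library, and the sources used here do not give age, sex or the number of mice behind each library. LyzM-Cre is driven from the Lyz2 locus in myeloid cells, so cells of other lineages in the culture keep the floxed alleles.

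Phosphatidylserine moves to the outer leaflet of a dying cell. GAS6 and protein S, which carry vitamin K-dependent γ-carboxyglutamate residues, bind it and activate the TAM kinases, while MFG-E8 binds it and presents an RGD sequence to αvβ3 and αvβ5 integrins. TIM-4 binds phosphatidylserine directly, LRP1 is a large endocytic receptor for many ligands, calreticulin among them, and CD47 on a target cell engages SIRPα on the macrophage, which recruits the phosphatases SHP-1 and SHP-2. MERTK is a widely used marker of tissue macrophages, and AXL is known in macrophages as a receptor that inflammatory stimuli induce.

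The KO library held 15815956 counted reads and the WT library 11782664. Counts were scaled to counts per 1000000 effective reads (CPM) with TMM, a scaling that assumes most genes are alike in both libraries, and intervals in parentheses are 95% exact counting intervals of the KO over WT ratio. They cover counting error only, since with 1 library per genotype no difference has a replicate check and no p-value was computed. A gene was called higher or lower when its ratio was at least 1.5-fold and its interval excluded 1. The targeted gene Tnfaip8l1, which encodes TIPE1, had 3 reads in the KO library against 21 in the WT library. Lyz2, whose locus carries Cre in the KO mice, stood at 8028 CPM in the KO library against 14958 CPM in the WT library. Of 16 macrophage markers, 1 was called higher, 2 lower and 13 neither way, and Csf1r stood at 2414 CPM in the KO library against 2646 CPM in the WT library. Among 11 cell type lists the lowest median log2 ratio, -3.37, was that of the 20 fibroblast and stromal genes, of which 19 were tested and 18 called lower, with a summed level of 306 CPM in the KO library against 2422 CPM in the WT library. Of the defining markers in that list, Tagln alone had no read in either library, while Col1a1 and Col1a2 stood at 58.9 and 45.0 CPM in the KO library against 714 and 523 CPM in the WT library.

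Among the 10 genes, Timd4 and Mfge8 were called higher in the KO library, and Gas6 was called lower. The other 7 genes were called neither way. Across the 12495 genes whose mean reached 1 CPM, 6.47% were called higher and 7.23% lower. With a fold of 2 in place of 1.5, Timd4 and Gas6 were still called and Mfge8 was not, beside 2.59% of all tested genes called higher and 4.78% lower. With total counts 1 of the 10 was called higher and 1 lower, beside 5.21% of all tested genes called higher and 8.49% lower. With the macrophage marker sum 2 were called higher and 1 lower, beside 10.3% and 5.34% of all tested genes, and with that sum without Lyz2 1 higher and 2 lower, beside 4.20% and 10.2%. DESeq2 size factors (6.64% of all tested genes higher and 7.11% lower) and TMM without the stromal genes (6.47% and 7.23%) left 2 called higher and 1 lower. With a minimum mean of 10 CPM 1 was called higher and 1 lower, beside 4.92% and 2.66% of 8379 genes, and with no filter 2 higher and 1 lower, beside 2.00% and 2.78% of 46095 genes. The filter kept 9 of the 10 genes and left out Tyro3. Timd4 passed it only through its level in the KO library, so a gene so low could enter the count only by differing, and the counts describe these genes without setting them apart from other genes. The median log2 ratio of the 9 genes, taken after adding 0.5 CPM to each level, was 0.09, beside 0.01 over all tested genes.

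**Figure D1:**
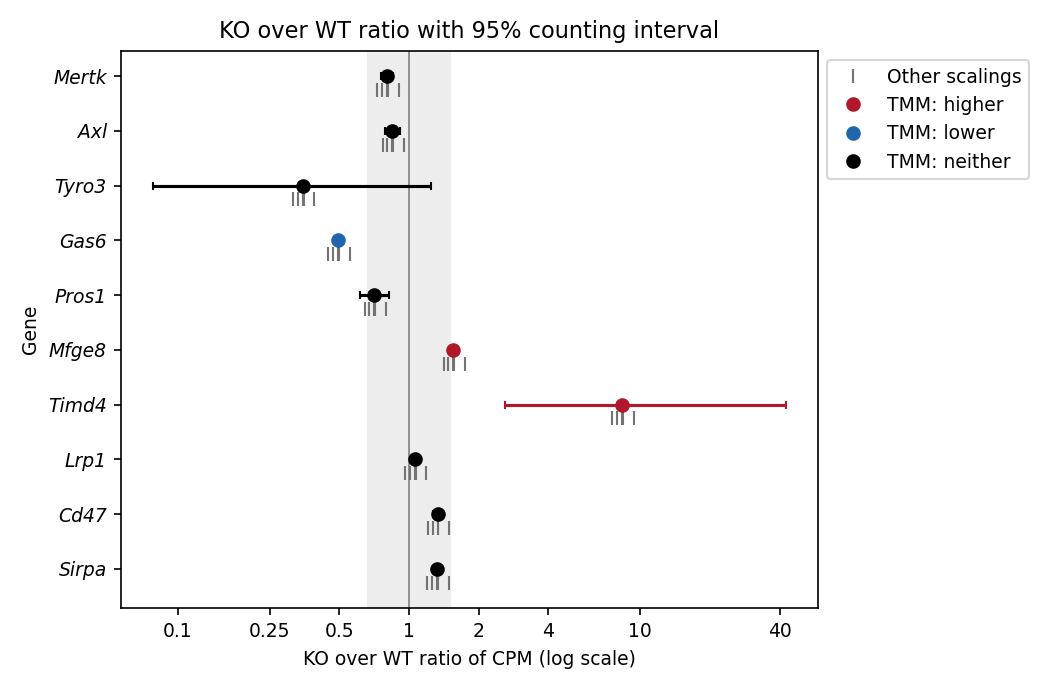
KO over WT ratio of CPM for each of the 10 genes on a log axis, 1 library per genotype. Points are ratios after TMM scaling with their 95% counting intervals, ticks under each point are the ratios under the 5 other scalings, and the grey band is the range within 1.5-fold. Timd4 and Mfge8 lie to the right of the band and Gas6 to the left, while the Mfge8 ticks reach into the band at 1.41. Tyro3, too low to be tested, also lies to the left at 0.35, with an interval that includes 1.

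The TAM kinases were represented by Mertk and Axl, with almost no Tyro3. Mertk, which signals engulfment of apoptotic cells (chr2:128698956-128802894, GRCm38, protein-coding, 19 exonic blocks), had 2212 reads or 143 CPM in the KO library against 2149 reads or 178 CPM in the WT library, a ratio of 0.81 (0.759 to 0.855). Axl (chr7:25757273-25788705) had 1623 reads or 105 CPM in the KO library against 1498 reads or 124 CPM in the WT library, a ratio of 0.85 (0.790 to 0.910). Both ratios lay below 1 by more than counting error, stayed below 1 under all 6 scalings and were within 1.5-fold. Tyro3 (chr2:119797733-119818104), the TAM kinase best known from the nervous system, had 4 reads in the KO library against 9 in the WT library. Its ratio of 0.35 (0.0783 to 1.25) was not resolved at this depth, where 3 reads correspond to 0.194 CPM in the KO library against 0.248 CPM in the WT library.

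The split of reads among the TAM kinases needs no scaling between libraries. Mertk held 57.6% (56.0% to 59.2%, Clopper-Pearson) of the 3839 TAM receptor reads in the KO library against 58.8% (57.2% to 60.4%) of the 3656 in the WT library. There were 136 Mertk reads per 100 Axl reads in the KO library against 143 in the WT library, a relative change of 0.95 with a counting interval (normal approximation on the log scale) of 0.867 to 1.04. The balance of Mertk to Axl thus did not differ beyond counting error within that interval.

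The bridging ligands went in opposite directions. Gas6 (chr8:13465374-13494490), which encodes the ligand of all 3 TAM kinases, had 3870 reads or 251 CPM in the KO library against 6119 reads or 507 CPM in the WT library, 2.02-fold lower (1.94 to 2.10). Mfge8 (chr7:79133768-79149060), which encodes the bridge to αv integrins, had 7758 reads or 503 CPM in the KO library against 3902 reads or 323 CPM in the WT library, 1.56-fold higher (1.498 to 1.618). Pros1 (chr16:62854307-62929346), which encodes protein S, a cofactor of anticoagulation as well as a ligand of TYRO3 and MERTK, had 366 reads or 23.7 CPM in the KO library against 404 reads or 33.4 CPM in the WT library. Its ratio of 0.71 (0.614 to 0.819) stayed within 1.5-fold under TMM. The Mfge8 call ended with total counts, at 1.48-fold, and when the libraries were scaled to the macrophage markers without Lyz2, at 1.41-fold. Under that last scaling Pros1 was called lower, at 1.56-fold. Gas6 was called lower under all 6 scalings, from 1.81-fold to 2.23-fold. The exons of Gas6 share 34 bases with Tmem255b on the opposite strand, which had 2 reads in the KO library against 6 in the WT library, and no other exonic overlap with an annotated gene was found for the 10 genes.

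The 250 bases before the transcription start of Gas6 and Mfge8, from RefSeq on GRCm38.p6, are given because these ligands differed in opposite directions. Capitals mark the letters GGGCGG, a GC box core, on either strand.
Gas6, chr8:13494536-13494785, minus strand: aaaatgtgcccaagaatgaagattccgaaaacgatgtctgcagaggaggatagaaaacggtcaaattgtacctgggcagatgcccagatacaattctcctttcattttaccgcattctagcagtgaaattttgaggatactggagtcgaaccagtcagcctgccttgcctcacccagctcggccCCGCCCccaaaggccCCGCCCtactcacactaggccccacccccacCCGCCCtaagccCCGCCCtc
Mfge8, chr7:79149061-79149310, minus strand: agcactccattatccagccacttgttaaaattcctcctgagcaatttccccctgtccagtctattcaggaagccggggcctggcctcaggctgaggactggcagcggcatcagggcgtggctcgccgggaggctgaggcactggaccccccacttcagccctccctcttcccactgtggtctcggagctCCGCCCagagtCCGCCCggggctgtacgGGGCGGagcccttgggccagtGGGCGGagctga
Each of the 2 windows held 4 matches. The same letters occurred in 8 of the 9 member promoters at hand and in 32.9% of 27018 RefSeq promoters of the same length. GC content was 54.8% for Gas6 and 65.2% for Mfge8, beside a median of 52.0% over all promoters. The part of these promoters in the ligand levels was not tested.

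The make-up of the ligand reads within each library differed as well. Mfge8 held 64.7% (63.8% to 65.5%) of the 11994 ligand reads in the KO library against 37.4% (36.5% to 38.4%) of the 10425 in the WT library. Gas6 held 32.3% (31.4% to 33.1%) in the KO library against 58.7% (57.7% to 59.6%) in the WT library. The more heavily read ligand gene was thus Mfge8 in the KO library but Gas6 in the WT library. Per kb of exon the Mfge8 share was lower, at 50.7% in the KO library against 24.95% in the WT library, and the Gas6 share higher, at 46.6% in the KO library against 72.1% in the WT library, with the same gene first in each library. Mfge8 reads per 100 Gas6 reads were 200.5 in the KO library against 63.8 in the WT library, a 3.14-fold difference (2.97 to 3.32) that no scaling can alter. Between the TAM ligands, Gas6 held 91.4% (90.5% to 92.2%) of the Gas6 and Pros1 reads in the KO library against 93.8% (93.2% to 94.4%) in the WT library. Gas6 was also lower relative to its receptors, at 175 reads per 100 Mertk reads in the KO library against 285 in the WT library, and 238 reads per 100 Axl reads in the KO library against 408 in the WT library.

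**Figure D2:**
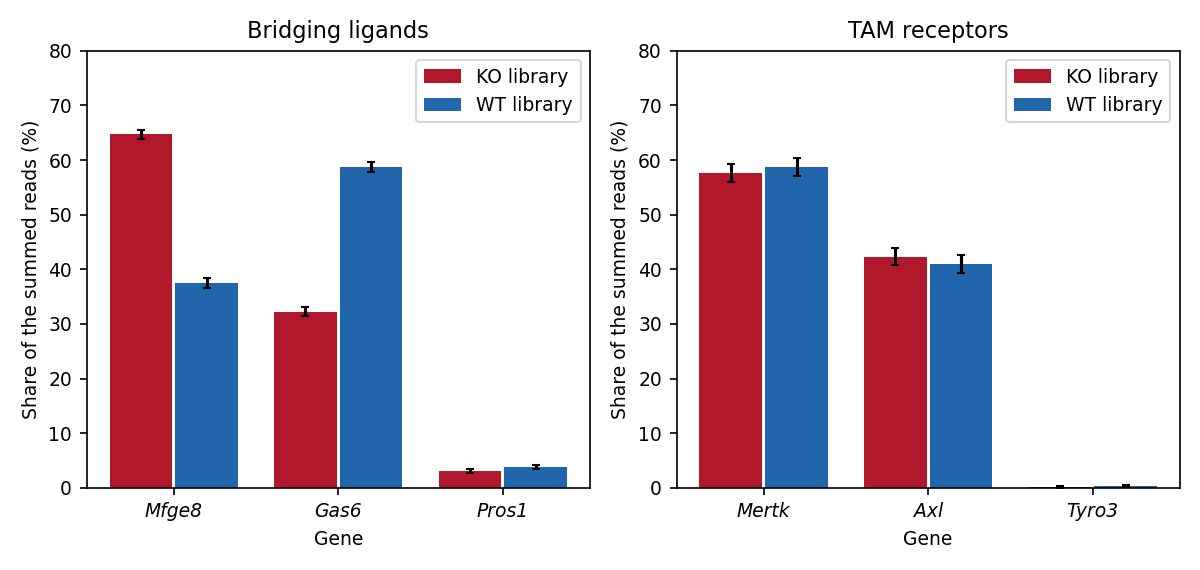
Share of the summed reads held by each gene within a library, in percent, for the bridging ligands (left) and the TAM receptors (right). Bars start at 0 and error bars are 95% Clopper-Pearson intervals. Mfge8 and Gas6 exchanged places between the libraries, at 64.7% and 32.3% in the KO library against 37.4% and 58.7% in the WT library, while Mertk and Axl held similar shares in both.

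Gas6 is also made by fibroblasts and other stromal cells, whose marker list was 7.92-fold lower in summed level in the KO library. In RNA from a whole culture, fewer cells of a type and less RNA per cell cannot be told apart. Gas6 reads per 100 Col1a1 reads were 426 in the KO library against 70.9 in the WT library. Gas6 was thus less reduced than Col1a1. The part of stromal cells in the Gas6, Pros1 and Axl values was not tested. Of the other cell type lists, the monocyte list had 5 of 11 tested genes called lower, 1 higher and a summed level of 572 CPM in the KO library against 1320 CPM in the WT library. The neutrophil list had 4 of 11 tested genes called lower and 0 higher (848 CPM in the KO library against 1129 CPM in the WT library), the B cell list 4 of 5 lower (50.0 CPM in the KO library against 59.1 CPM in the WT library) and the osteoclast list 4 of 6 higher (1328 CPM in the KO library against 543 CPM in the WT library). Of the B cell genes called lower, Cd79a, Ms4a1 and Pax5 passed the filter only through their levels in the WT library. These 3 stood at 0.648, 0.130 and 0.194 CPM in the KO library against 3.31, 1.90 and 2.07 CPM in the WT library. The B cell sum was mostly Cd22, called neither way at 47.5 CPM in the KO library against 46.5 CPM in the WT library. Of the osteoclast genes, Mmp9 was called higher at 732 CPM in the KO library against 126 CPM in the WT library. Atp6v0d2 was also called higher, at 421 CPM in the KO library against 254 CPM in the WT library. Ctsk and Nfatc1 were called neither way, with ratios below 1 of 0.79 and 0.81. The dendritic cell list had a summed level of 197 CPM in the KO library against 78.2 CPM in the WT library, with 2 of its 9 genes tested, of which Itgax was called higher (193 CPM in the KO library against 72.0 CPM in the WT library) and Ccr7 lower (1.10 CPM in the KO library against 3.89 CPM in the WT library). The T and NK cell list had 2 of 6 tested genes called higher (37.9 CPM in the KO library against 26.4 CPM in the WT library). They were Cd4 (27.6 CPM in the KO library against 17.6 CPM in the WT library) and Cd8a (3.31 CPM against 1.90 CPM). The other 4 were called neither way, among them Cd3e and Cd3g with ratios of 0.78 and 0.99. The endothelial list had 1 higher and 1 lower of 5 (56.1 CPM in the KO library against 51.5 CPM in the WT library) and the megakaryocyte list 1 of 2 lower (8.23 CPM in the KO library against 13.99 CPM in the WT library), while no erythroid gene was tested. Beside the counts of all these lists, 6.47% of all tested genes were called higher and 7.23% lower. The part of these cell types in the values of the 10 genes was not tested.

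Of the other uptake receptors, Timd4 differed by the largest ratio of all 10 genes at a very low level, and Lrp1 was abundant and close to level. Timd4 (chr11:46810800-46844332), which encodes TIM-4, the phosphatidylserine receptor of resident peritoneal macrophages, had 32 reads or 2.07 CPM in the KO library against 3 reads or 0.248 CPM in the WT library. The ratio was 8.35 (2.61 to 42.6), and its width shows how little 3 reads fix its size. Timd4 was called higher under all 6 scalings, from 7.56-fold to 9.34-fold, but dropped out when a mean of at least 10 CPM was required. Lrp1 (chr10:127538161-127621148) had 23218 reads or 1505 CPM in the KO library against 17130 reads or 1418 CPM in the WT library. Its ratio of 1.06 (1.040 to 1.082) was under 1, at 0.961, when scaled to the macrophage markers without Lyz2, so its direction was not resolved.

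The Timd4 promoter is given because it was the single one of the 9 that held a composite PU.1 and IRF motif, the core GGAA followed after 2 bases by GAAA, and no GC box core. Capitals mark the motif on the strand shown.
Timd4, chr11:46810549-46810798, plus strand: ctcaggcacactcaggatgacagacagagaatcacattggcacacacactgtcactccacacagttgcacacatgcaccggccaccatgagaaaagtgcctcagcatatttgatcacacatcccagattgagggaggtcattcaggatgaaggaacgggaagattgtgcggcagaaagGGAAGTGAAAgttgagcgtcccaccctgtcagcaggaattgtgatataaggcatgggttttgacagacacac
The match spanned bases -72 to -63 before the start. The motif was found on either strand in 2.38% of the 27018 promoters, and it overlapped none of the other motifs searched. PU.1 is the myeloid ETS factor encoded by Spi1, which stood at 433 CPM in the KO library against 353 CPM in the WT library, a ratio of 1.22 (1.18 to 1.27). GC content of this window was 50.0%, the lowest of the 9, whose others ran from 54.8% to 73.2%.

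The genes of the restraining pair differed by nearly the same factor. Cd47 (chr16:49800533-49915010) had 4168 reads or 270 CPM in the KO library against 2454 reads or 203 CPM in the WT library, a ratio of 1.33 (1.26 to 1.40). Sirpa (chr2:129592835-129632228), the macrophage receptor for CD47, had 52741 reads or 3418 CPM in the KO library against 31163 reads or 2580 CPM in the WT library, a ratio of 1.32 (1.31 to 1.34). Both ratios exceeded 1 by more than counting error, lay within 1.5-fold and ran from 1.2003 to 1.49 over the 6 scalings. There were 1265 Sirpa reads per 100 Cd47 reads in the KO library against 1270 in the WT library, a relative change of 0.9965 (0.946 to 1.05). Against Mertk, Cd47 was 1.65-fold higher (1.53 to 1.78), with 188 Cd47 reads per 100 Mertk reads in the KO library against 114 in the WT library. Sirpa has close relatives in the Sirpb1 genes, and reads shared between them may be misplaced. Sirpb1a had 169 reads in the KO library against 116 in the WT library, and Sirpb1b 140 in the KO library against 162 in the WT library, all few beside Sirpa.

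Levels of different genes were compared per kb of exon. In the KO library the order was Sirpa (696 CPM per kb), Mfge8 (107), Gas6 (98.4), Lrp1 (84.9), Cd47 (43.0), Mertk (33.1), Axl (20.9), Pros1 (5.80), Timd4 (0.954) and Tyro3 (0.0418). In the WT library it was Sirpa (525 CPM per kb), Gas6 (199), Lrp1 (80.1), Mfge8 (68.8), Mertk (41.0), Cd47 (32.4), Axl (24.6), Pros1 (8.18), Tyro3 (0.120) and Timd4 (0.114). Mfge8 stood above Gas6 and Lrp1 in the KO library and below both in the WT library, and Cd47 stood above Mertk in the KO library and below it in the WT library. Each neighbouring pair in either order was separated by its counting intervals except Tyro3 and Timd4 in the WT library, where the intervals ran from 0.0550 to 0.228 and from 0.0236 to 0.334 CPM per kb. These levels depend on the exons assumed for each gene, which may differ from those the authors counted over.

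**Figure D3:**
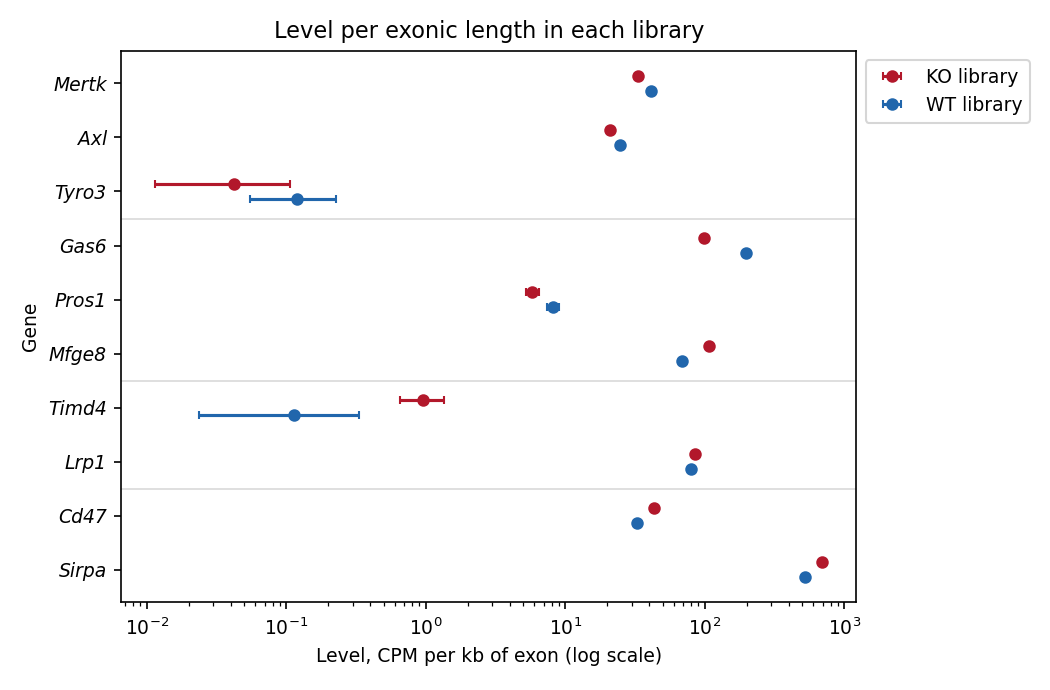
Level of each of the 10 genes in the KO and WT libraries, in CPM per kb of exon on a log axis. Points are single libraries and bars are 95% Poisson counting intervals, hidden by the point where narrow, and lines part the roles. The genes span from 0.0418 CPM per kb for Tyro3 to 696 CPM per kb for Sirpa, both in the KO library.

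**Figure D4:**
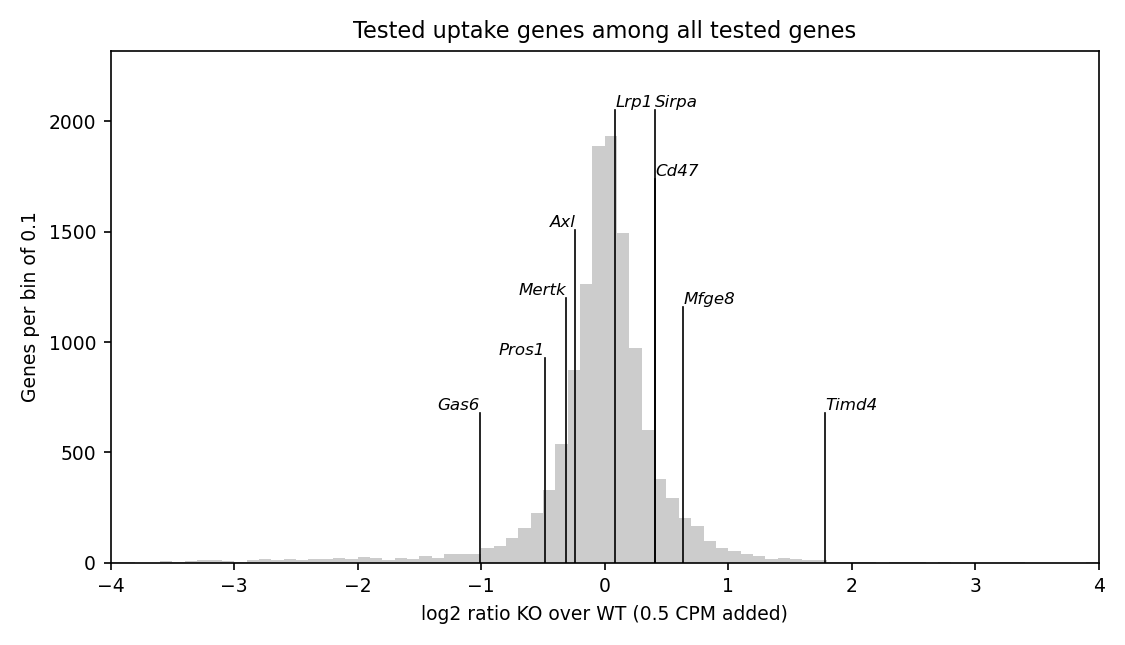
Distribution of the log2 ratio KO over WT after adding 0.5 CPM to each level for all 12495 tested genes (grey bars, bins of 0.1, values beyond 4 drawn in the end bins), with the 9 tested uptake genes marked by lines whose heights have no meaning. Gas6 at -1.01, Mfge8 at 0.64 and Timd4 at 1.78 lie on the flanks and the others nearer the centre.

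The rest of the uptake pathway was described with 11 lists of 118 genes, of which 117 were in the table and 102 passed the filter. Of these 102 genes, 10 were called higher, 9 lower and 83 neither way, with a median log2 ratio of 0.02 beside 0.01 over all tested genes. These were 9.80% of the 102 called higher and 8.82% lower, beside 6.47% and 7.23% of all tested genes. Of the 19 called genes, 11 were called under all 6 scalings, among them Olr1, Anxa1, Rac2 and Nr1h3 as higher and Itgav, Edil3, Ptx3, Vldlr, Cx3cr1 and S1pr1 as lower. Ptx3 had 7 reads or 0.454 CPM in the KO library against 38 reads or 3.15 CPM in the WT library. It passed the filter only through its level in the WT library, so it could enter the count only by differing. Olr1 was also low, with 67 reads in the KO library against 16 in the WT library. The other 8 called genes, which were Cd36, Ptpn6, Dock2, Cybb, Abcg1, Itgb5, Cd24a and Cd300a, lost the call under at least 1 scaling. With total counts 6 were called higher and 12 lower, beside 5.21% and 8.49% of all tested genes. With the macrophage marker sum 18 were called higher and 6 lower, beside 10.3% and 5.34%, and with that sum without Lyz2 5 higher and 14 lower, beside 4.20% and 10.2%.

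Of 15 tested receptors for phosphatidylserine or apoptotic cells, 2 were called higher (13.3%), 2 lower (13.3%) and 11 neither, beside 6.47% and 7.23% of all tested genes. Itgav and Itgb5, the αv and β5 integrin chains that bind MFG-E8, were 1.68-fold lower (170 CPM in the KO library against 287 CPM in the WT library) and 1.60-fold lower (144 CPM in the KO library against 230 CPM in the WT library). Itgb3, the partner chain of the other MFG-E8 integrin, stood at 30.3 CPM in the KO library against 24.6 CPM in the WT library, a ratio of 1.23. Mfge8 and its αv and β5 integrin chains thus differed in opposite directions. Both chains are also expressed by stromal cells, and the part of those cells in the values was not tested. Cd36, a scavenger receptor that takes part in uptake with αvβ3, was 1.53-fold higher (2398 CPM in the KO library against 1562 CPM in the WT library). Stab1, a scavenger receptor for phosphatidylserine, stood at 866 CPM in the KO library against 1235 CPM in the WT library, a ratio of 0.70, and Trem2 at 567 CPM in the KO library against 594 CPM in the WT library.

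Of 10 tested bridging proteins and opsonins, 1 was called higher, 2 lower and 7 neither, beside 6.47% and 7.23% of all tested genes. With so few genes, these counts describe the list without setting it apart from other genes. Anxa1, which encodes a phospholipid-binding protein that promotes resolution of inflammation, was 2.05-fold higher (1522 CPM in the KO library against 742 CPM in the WT library). Edil3, a relative of Mfge8 that also links phosphatidylserine to αv integrins, was 1.70-fold lower, at 4.93 CPM in the KO library against 8.36 CPM in the WT library. The C1q chain genes C1qa, C1qb and C1qc, whose product opsonizes apoptotic cells, had ratios of 0.87, 0.86 and 0.95.

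The enzymes that prepare and shed TAM proteins, and the genes under TAM signalling, held no called gene among 4 and 10 tested. Over all tested genes 6.47% were called higher and 7.23% lower. Vkorc1, which regenerates the vitamin K needed to carboxylate GAS6 and protein S, stood at 10.2 CPM in the KO library against 15.0 CPM in the WT library, a ratio of 0.68 (0.545 to 0.846). Ggcx, the carboxylase itself, had 4 reads in the KO library against 6 in the WT library. Adam17, the protease that sheds MERTK, stood at 588 CPM in the KO library against 438 CPM in the WT library, a ratio of 1.34 (1.30 to 1.39). Socs1 and Socs3, the inhibitors that TAM signalling induces in dendritic cells, had ratios of 0.94 (0.605 to 1.45) and 0.97 (0.844 to 1.10), intervals that include 1.

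Of 7 tested LRP1 partners, 1 was called higher (14.3%), 1 lower (14.3%) and 5 neither, beside 6.47% and 7.23% of all tested genes. Lrpap1, the chaperone of LRP1, had a ratio of 0.98. Of 8 tested inhibitory receptors, phosphatases and CD47-modifying enzymes, 1 was called higher, 2 lower and 5 neither. Ptpn6, which encodes the SIRPα-binding phosphatase SHP-1, was 1.53-fold higher (513 CPM in the KO library against 336 CPM in the WT library), and Ptpn11, which encodes SHP-2, had a ratio of 1.1998. Cd300a, an inhibitory receptor for phosphatidylserine, was 1.64-fold lower (116 CPM in the KO library against 191 CPM in the WT library), and Cd24a, a signal against engulfment known from human tumours, 1.51-fold lower (11.9 CPM in the KO library against 18.0 CPM in the WT library). Qpctl, the enzyme that matures the SIRPα-binding end of CD47, had a ratio of 0.92 (0.749 to 1.13).

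For each list that follows, the shares over all tested genes were 6.47% called higher and 7.23% lower. Among 13 tested genes of engulfment signalling 2 were called higher (15.4%), none lower and 11 neither. Rac2, the Rac GTPase of blood cells, was 1.97-fold higher (518 CPM in the KO library against 263 CPM in the WT library), and Dock2, its exchange factor in leukocytes, just past the call at a ratio of 1.5015 (467 CPM in the KO library against 311 CPM in the WT library). Rac1 and Dock1, their widely expressed relatives, had ratios of 0.88 and 1.09. Of 15 genes of phagosome maturation and LC3-associated phagocytosis, Cybb, the catalytic subunit of the phagocyte NADPH oxidase, was the single gene called (6.67%, near the share over all tested genes). It was 1.55-fold higher (2093 CPM in the KO library against 1350 CPM in the WT library), and the other 14 were called neither way. Of 7 tested genes of the sterol and nuclear receptor response to engulfed cells, 2 were called higher (28.6%), none lower and 5 neither. Nr1h3, which encodes LXRα, was 2.06-fold higher (55.2 CPM in the KO library against 26.8 CPM in the WT library). The sterol exporter gene Abcg1 was 1.63-fold higher (177 CPM in the KO library against 108 CPM in the WT library). Mertk, a known target of LXR in macrophages, was called neither way at its ratio of 0.81. The part of LXR in these values was not tested. Of 6 tested genes of phosphatidylserine exposure none was called, the most distant being Plscr1 at 24.8 CPM in the KO library against 18.3 CPM in the WT library. Of 7 receptors for find-me signals, Cx3cr1, the fractalkine receptor, was 2.39-fold lower (14.9 CPM in the KO library against 35.7 CPM in the WT library) and S1pr1, a sphingosine 1-phosphate receptor, 2.17-fold lower (89.5 CPM in the KO library against 195 CPM in the WT library). The other 5 were called neither way, and Cx3cr1 is also on the monocyte list.

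**Figure D5:**
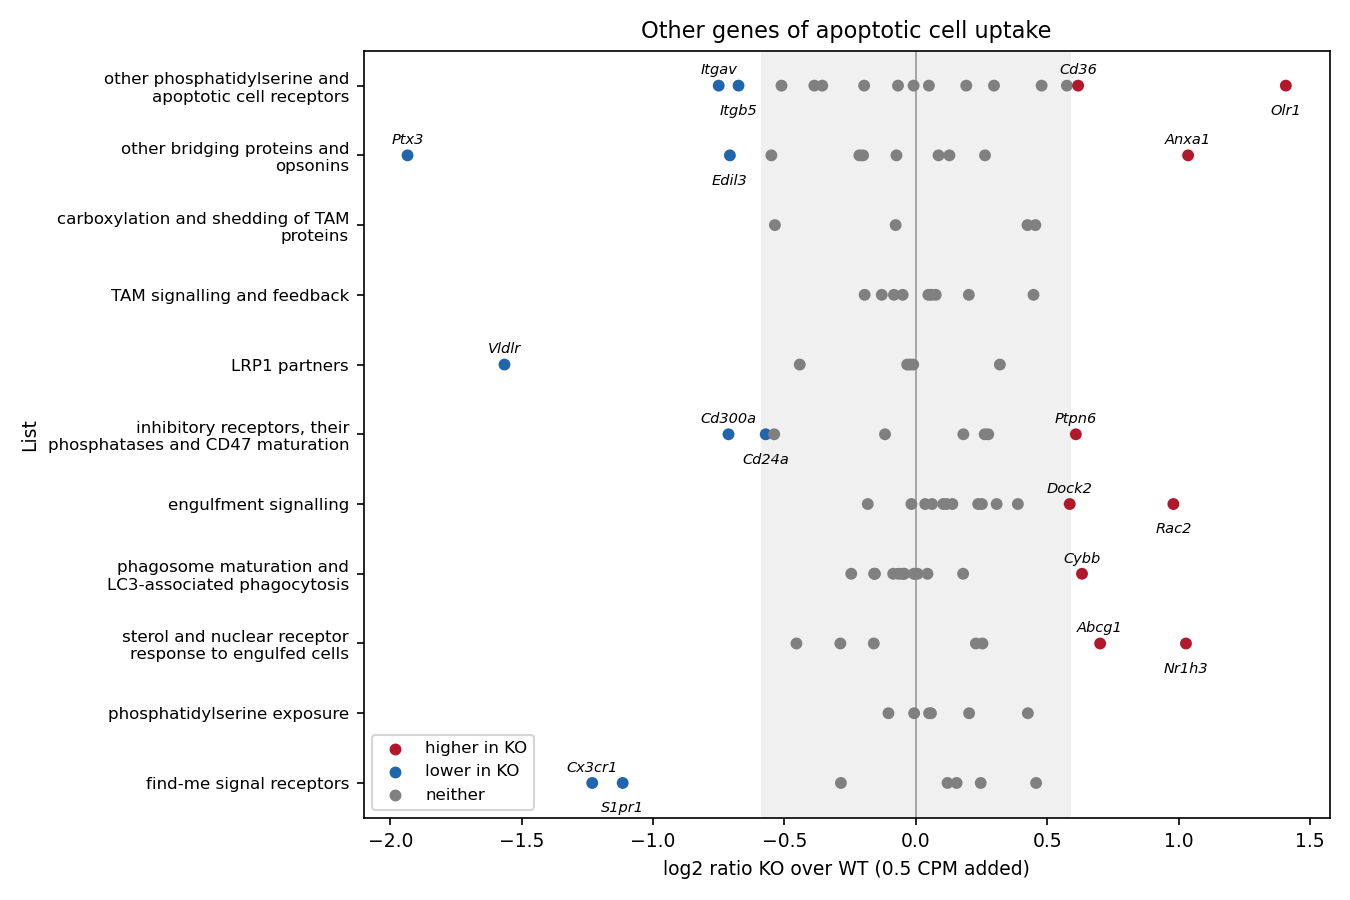
log2 ratio KO over WT of 100 of the 102 tested genes in the 11 lists of the wider uptake pathway, 1 point per gene and 1 row per list. Red points were called higher in the KO library, blue points lower and grey points neither, the called genes drawn are named, and the grey band marks the range within 1.5-fold. The 18 called points drawn spread over both sides and over 8 of the 11 lists.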

How the data were processed

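The authors deposited raw read counts per gene symbol, in 1 column for each library, per the file headers. The aligner HISAT2 and GRCm38 are named, without versions, in the submitters' processing notes. The counting program, annotation, strand setting and read filters are absent from the labels and the header, so reads of near copies may be misplaced. Effective library sizes came from TMM in edgeR 4.0.16 (R 4.3.3), and 0.5 CPM was added before log2 ratios were taken. Ratio intervals are exact Clopper-Pearson intervals (scipy 1.17.1) of the split of a gene's reads. The calculation was run on simulated Poisson counts. Those counts meet the assumption of the intervals, so the run checked the calculation and not the intervals for these libraries. PCR duplicates are not independent molecules, so intervals can be too narrow. Exonic lengths and positions came from GENCODE M21 on GRCm38, and promoters from RefSeq, which gave 9 of the 10 genes.

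All 10 genes were named at any level. From each wider list up to 3 called genes averaging at least 5 CPM were named, or the most distant one, and others were chosen after their values were seen. Members and lists were chosen with earlier results of these data known, and the motifs after the promoters had been read. The motifs, searched on both strands in the 250 bases before the start, were a PU.1 and IRF composite (GGAA and GAAA with 2 bases between), an interferon response element (GAAA repeated after 2 bases), AP-1 (TGANTCA), PU.1 (GAGGAAG), a MAF core (TGCTGA), TEAD (GGAATG), a hypoxia response core (ACGTG), a GC box core (GGGCGG) and an LXR core (AGGTCA). A comparison of member proteins was planned and was not done here, and the values of some listed genes are not reported here. Alternatives were total counts, DESeq2 1.42.0 size factors, the macrophage marker sum with and without Lyz2, TMM without stromal genes, a fold of 2, other filters, 2 CPM added and reads per length.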

Additional observations from a re-analysis of the deposited data

How the results depend on the processing

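Of the 10 genes, 2 were called higher and 1 lower, beside 6.47% and 7.23% of all tested genes. The higher count was 1 with total counts (beside 5.21% of all tested genes), a fold of 2 (2.59%) and a minimum mean of 10 CPM (4.92%). It was also 1 when scaled to the macrophage markers without Lyz2 (4.20%), an alternative added after the data were seen. Under that scaling 2 were called lower, beside 10.2%. Of the wider genes, 10 were called higher and 9 lower, beside the same 6.47% and 7.23%. Total counts gave 6 higher and 12 lower, beside 5.21% and 8.49% of all tested genes. The macrophage marker sum gave 18 higher and 6 lower, beside 10.3% and 5.34%. That sum without Lyz2 gave 5 higher and 14 lower, beside 4.20% and 10.2%. A fold of 2 gave 3 higher and 4 lower, beside 2.59% and 4.78%. The share of higher calls thus depends on the scaling. The macrophage marker sum moved the median log2 ratio of all tested genes to 0.167 and the sum without Lyz2 moved it to -0.127, so calls under either include that shift. With no filter 10 were higher and 11 lower, beside 2.00% and 2.78% of 46095 genes. Per exonic length the Mertk share of TAM receptor reads was 61.2% in the KO library against 62.4% in the WT library, and the Gas6 share of Gas6 and Pros1 reads 94.4% in the KO library against 96.0% in the WT library. Of all bridging ligand reads, per length, an alternative also added later, Mfge8 held 50.7% in the KO library against 24.95% in the WT library, and Gas6 46.6% in the KO library against 72.1% in the WT library. Of 396 recomputed values of 66 named genes, 304 were rated the same, 92 were rated moved, and 0 of the called ones changed direction. A ratio under another scaling was rated moved when it left the counting interval. The 396 also include log2 ratios with 2 CPM added, rated by their shift against the width of that interval, so 304 is not a count over the scalings alone. No paired analysis was possible because the design has a single library of each genotype. Depth limits Tyro3 and Timd4.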
